A study of Mus musculus with 3 samples.

Results

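The Fos family of AP-1 subunits was described here by its 4 genes, Fos, Fosb, Fosl1 and Fosl2, taken by symbol from 55536 annotated genes. RNA was measured in 3 libraries of 1 group. The cells were bone-marrow-derived macrophages, primary cells of mouse strain C57BL/6J, exposed to lipid A, the TLR4-activating moiety of endotoxin, at 100 ng/ml for 20 min. RNA came from the chromatin fraction, where nascent and unreleased transcripts are enriched, and ribosomal RNA was depleted. The labels record no genetic change, age or sex, give 1 donor entry for 3 separate biosamples, and do not say whether these came from separate animals, so the spread between libraries may be partly technical. Starting RNA differed, at 250 ng in replicate 2, 500 ng in replicate 3 and 1000 ng in replicate 1. No untreated library was analysed here, so levels are given and no induction.

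Fos proteins are basic leucine zipper (bZIP) factors. They bind DNA mostly as dimers with Jun proteins, and these dimers are the transcription factor AP-1. In resting cells Fos and Fosb are nearly silent. Kinases of the ERK and p38 pathways, activated within minutes of TLR4 signalling, phosphorylate ternary complex factors bound with SRF, and CREB, at the Fos promoter, and transcription starts without new protein synthesis. The mRNA is then degraded quickly. Fosl1 and Fosl2, also called Fra1 and Fra2, lack the strong transactivation domain of Fos and FosB, and in many cells they appear later.

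The shared DNA-contacting part of the family is visible in exon 3, which is shown because it is what makes these 4 genes 1 family. It measures 108 bases in the first coding isoform of each gene. Sequences are from GENCODE M21 transcripts on GRCm38, 5′ to 3′, and capitals mark bases identical in all 4 genes.
Fos, chr12:85475592-85475699, plus strand: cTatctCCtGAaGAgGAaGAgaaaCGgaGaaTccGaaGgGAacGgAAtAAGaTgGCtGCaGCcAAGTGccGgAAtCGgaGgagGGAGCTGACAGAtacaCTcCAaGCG
Fosb, chr7:19306559-19306666, minus strand: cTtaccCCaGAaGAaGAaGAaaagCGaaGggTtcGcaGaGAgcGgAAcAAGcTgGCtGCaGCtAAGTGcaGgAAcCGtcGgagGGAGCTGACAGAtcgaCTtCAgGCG
Fosl2, chr5:32150421-32150528, plus strand: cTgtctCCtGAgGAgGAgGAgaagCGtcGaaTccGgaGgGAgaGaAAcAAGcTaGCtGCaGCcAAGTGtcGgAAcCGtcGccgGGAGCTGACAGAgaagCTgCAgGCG
Fosl1, chr19:5454413-5454520, plus strand: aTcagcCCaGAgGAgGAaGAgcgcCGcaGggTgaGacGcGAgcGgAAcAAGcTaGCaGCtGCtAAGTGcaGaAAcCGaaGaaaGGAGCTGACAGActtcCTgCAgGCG
All 4 genes share 62 of the 108 bases, or 57.4%. The exon starts at the first base of a codon, and of the 46 positions that differ, 29 are at codon position 3, 13 at position 1 and 4 at position 2. Fos is identical to Fosl2 at 77.8% of the positions, to Fosb at 76.9% and to Fosl1 at 66.7%. Fosb and Fosl2 share 74.1%, Fosb and Fosl1 also 74.1%, and Fosl2 and Fosl1 66.7%.

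Promoters are shown for Fos and Fosb, the 2 highest members, since the factors named above act at the Fos promoter. The windows are RefSeq sequence of GRCm38.p6 and cover the 250 bases before the start annotated there. Capitals mark TGACG, part of the cAMP response element bound by CREB, and TATAAA, the TATA box, on the plus strand of the gene.
Fos, chr12:85473640-85473889, plus strand: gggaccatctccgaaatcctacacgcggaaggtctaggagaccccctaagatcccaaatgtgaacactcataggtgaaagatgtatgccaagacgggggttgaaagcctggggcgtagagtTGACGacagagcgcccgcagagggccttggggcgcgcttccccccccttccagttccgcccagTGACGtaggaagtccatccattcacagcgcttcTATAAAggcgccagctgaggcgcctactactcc
Fosb, chr7:19310046-19310295, minus strand: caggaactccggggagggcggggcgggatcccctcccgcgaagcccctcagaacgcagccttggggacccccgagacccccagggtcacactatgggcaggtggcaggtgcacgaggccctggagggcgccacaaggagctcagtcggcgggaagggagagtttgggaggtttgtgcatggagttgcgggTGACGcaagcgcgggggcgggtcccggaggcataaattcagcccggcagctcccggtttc
The Fos window holds TGACG 129 to 125 and again 66 to 62 bases before the start, and TATAAA 33 to 28 bases before it. In the Fosb window TGACG lies 60 to 56 bases before the start. The last bases of the Fosb window lie inside exon 1 of the GENCODE isoform Fosb-201 (chr7:19309306-19310051), so these distances are not from that isoform's start. Of 32851 promoter windows of this length, 17.8% hold TGACG and 12.4% hold TATAAA on either strand. Matches to the NF-kB site (GGGRNWYYCC in IUPAC letters), searched on both strands, were found in the windows of Fos, Fosb and Fosl2 (2 overlapping matches in Fosl2). Of all windows, 3.90% held a match. The Fosl2 window, chr5:32136222-32136471, lies inside exon 1 of the GENCODE coding isoform Fosl2-201 (chr5:32135801-32136805), so its matches are not upstream of that start. The complete response element TGACGTCA (1.55% of windows), the AP-1 site TGANTCA (6.75%) and the CArG box bound by SRF (1.47%) had no match in these windows. A match is a match of letters only, and no match says only that these letters are not in the window. Sites more than 250 bases before the start, where promoter factors can also bind, were not searched. Promoter entries were matched for 3 of the 4 members, the exception being Fosl1.

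Library totals were 16317439, 16245280 and 12439931 expected counts (read counts split by the authors' tool between overlapping transcripts) in replicates 1, 2 and 3. Levels are in TPM, the abundance of a transcript per length, scaled to a fixed total in each library. All 8 macrophage markers reached 1 TPM in every library, with a list median of 88.1 TPM, whereas none of 12 markers of T and NK cells, neutrophils and fibroblasts did. Summed TPM per library was 0 to 0.06 for T and NK cells, 0.46 to 0.77 for neutrophils and 0.02 to 0.68 for fibroblasts, and Cd3d, Cd3e, Cd3g and Ly6g stood at 0 in all 3 libraries. In a second set of deposited tables Cd3d averaged 13.1 TPM.

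Fos, Fosb and Fosl2 were all abundant on chromatin, and Fosl1 was close to absent from the counts. Of 22028 coding genes, 8942 (40.6%) reached 1 TPM in every library, and so did 3 of the 4 members, whether the limit was 0.5, 1 or 2 TPM. The median of mean TPM over coding genes was 0.427, and 9.07 over those 8942.

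Fos, the founding member, had 112.58, 292.67 and 442.00 TPM in replicates 1, 2 and 3, from 3868, 6327 and 7442 counts. Replicate 1 was well below the other libraries, and the highest value was 3.93 times the lowest. The mean was 282 ± 165 TPM (SD, n = 3). Among coding genes Fos ranked 185th in replicate 1, 41st in replicate 2 and 26th in replicate 3.

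Fosb, whose protein also carries a strong transactivation domain, had 22.28, 73.11 and 141.74 TPM in replicates 1, 2 and 3, from 1943, 4993 and 6587 counts. The libraries stood in the same order as for Fos and spread more widely, by 6.36 times. The mean was 79.0 ± 60.0 TPM (SD, n = 3), or 47.7 TPM without replicate 3, and the rank among coding genes was 1736th, 438th and 234th, or 2673rd, 817th and 533rd in the second set of tables.

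Fosl2, the Fra2 gene, had 28.42, 31.76 and 83.82 TPM in replicates 1, 2 and 3, from 3122, 2489 and 4360 counts. Here replicates 1 and 2 were close and replicate 3 stood above both. The mean was 48.0 ± 31.1 TPM (SD, n = 3), or 30.1 TPM without replicate 3, with ranks of 1294th, 1347th and 529th.

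Fosl1, the Fra1 gene, had 1, 0 and 1.31 counts, or 0.02, 0 and 0.06 TPM, in replicates 1, 2 and 3. No library of these tables exceeded the floor of 3 counts set here, which corresponds to 0.0645, 0.0874 and 0.134 TPM for this gene. The upper 95% Poisson limits (exact, two-sided, counting error only) were 0.120, 0.107 and 0.248 TPM. For the count of 0 in replicate 2 that limit is 3.69 counts, somewhat above the floor. Fosl1 was therefore not detectable at this depth. The upper credibility bounds in the authors' tables were wider, at 0.831, 1.37 and 2.08 TPM, and the second set of tables gave 2.01, 1 and 3.01 estimated counts. Its gene body overlaps Ccdc85b on the opposite strand over 2767 bases, and that gene had only 7, 10 and 7.69 counts. The other members overlap no annotated gene.

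**Figure D1:**
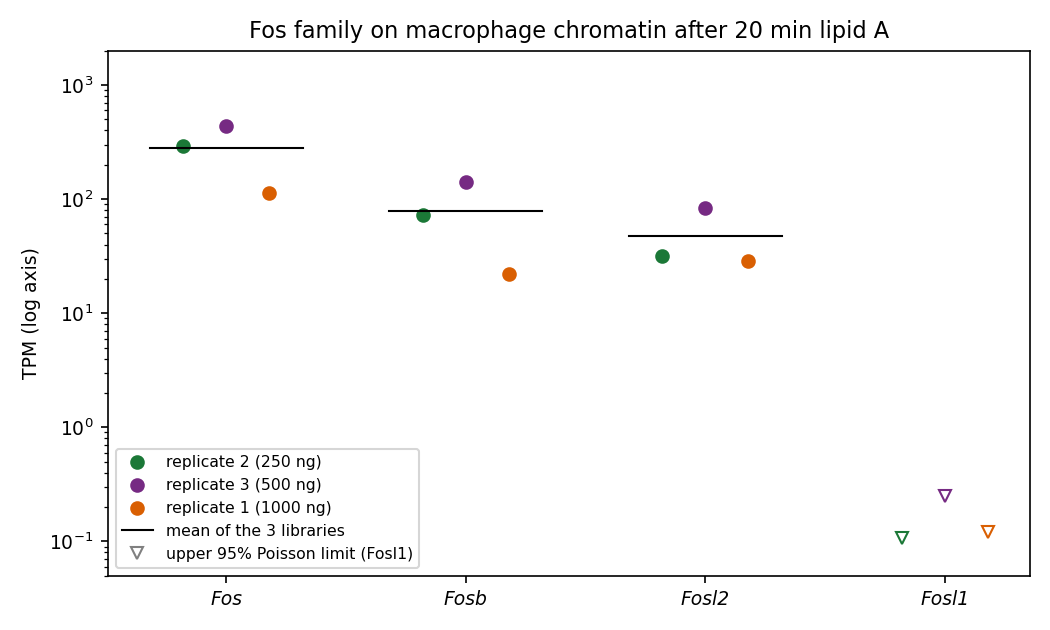
Level of each Fos family gene in TPM (log axis) in the 3 libraries, with lines at the means of 282, 79.0 and 48.0 TPM for Fos, Fosb and Fosl2. Open triangles for Fosl1 are upper 95% Poisson limits, 0.107 to 0.248 TPM, since its counts were 0 to 1.31.

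TPM here is scaled over all entries of a table, and coding genes held 15.8%, 18.0% and 24.7% of it in replicates 1, 2 and 3, which moves with the TPM of every coding gene. Rescaled over coding genes alone, Fos had 712, 1622 and 1789 TPM, Fosb 141, 405 and 574, and Fosl2 180, 176 and 339. Replicate 1 stayed lowest for Fos and Fosb on this scale, and replicate 3 stayed highest for all 3 genes. The tables' own credibility intervals (level not given in the sources used here) were narrow beside these differences. For Fos they ran from 102 to 114 TPM in replicate 1, 266 to 287 in replicate 2 and 389 to 420 in replicate 3, the last 2 lying below the TPM estimate itself.

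Fos exceeded Fosb in each library, by 2.33, 2.00 and 1.64 on the log2(TPM + 0.1) scale in replicates 1, 2 and 3. The mean difference was 1.99 ± 0.35 (SD, n = 3), about 3.97-fold, and 7.31-fold in the second set of tables. Isoforms annotated as noncoding, described below, held 76.5% of Fos TPM and 47.5% of Fosb TPM in that second set. In the main tables they held 53.5% and 49.0%. Against Fosl2, Fos was higher by 1.98, 3.20 and 2.40, a mean of 2.53 ± 0.62 or 5.76-fold. Both differences were larger than their spread and had the same sign in 3 of 3 libraries, but the exact two-sided sign-flip permutation test cannot go below p = 0.25 with 3 libraries, and gave 0.25 for each (0.3 after Benjamini-Hochberg adjustment over 6 pairs). Fosb minus Fosl2 was -0.35, 1.20 and 0.76, a mean of 0.54 ± 0.80 with Fosb higher in 2 of 3 libraries. These neighbours did not differ beyond their spread (exact permutation p = 0.5, adjusted p = 0.5). Differences from Fosl1 are not given as folds, because its counts lay under the floor.

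As shares of the summed family TPM, Fos made up 68.9%, 73.6% and 66.2% in replicates 1, 2 and 3, a mean of 69.6% ± 3.75 (SD, n = 3). Fosb made up 13.6%, 18.4% and 21.2% (17.8% ± 3.83) and Fosl2 17.4%, 7.99% and 12.6% (12.6% ± 4.71). The spread of the Fos share is not comparable with the 3.93-fold range of its level. Changes common to the family cancel in a share, and Fos is most of its own denominator. The order of Fosb and Fosl2 was the other way round in replicate 1.

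Jun proteins are the main partners of Fos proteins, and all 3 Jun genes were detected. Junb, often a weaker activator than c-Jun, was the highest at 86.65, 79.76 and 183.49 TPM (117 ± 58.0; SD, n = 3). Jun itself had 46.69, 41.25 and 61.97 TPM (49.97 ± 10.7), and Jund, in many cells the constitutive member, 4.05, 4.21 and 7.56 (5.27 ± 1.98). Summed, the Fos family had 163.30, 397.54 and 667.62 TPM in replicates 1, 2 and 3, and the Jun family 137.39, 125.22 and 253.02. The Fos sum was higher in 3 of 3 libraries, by 0.25, 1.67 and 1.40 on the log2 scale, a mean of 1.10 ± 0.75 (exact permutation p = 0.25, the smallest possible). In replicate 1 the Fos sum was 1.19 times the Jun sum, and 1.86 times in the second set of tables, where the sums were 332 and 178 TPM. The Fos sum includes isoforms annotated as noncoding, described below. In replicate 1 the coding isoforms of Fos, Fosb and Fosl2 had 55.86, 13.02 and 9.82 TPM, together below the Jun sum. In replicates 2 and 3 the coding isoforms together stayed above the Jun sum of the same library.

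Other bZIP partners and rivals, the Atf, Batf, Maf and Jdp2 genes, reached 1 TPM in every library in 11 of 12 cases, with a list median of 10.4 TPM. Atf3, a repressor-type partner induced by stress and TLR signals, led at 79.5 ± 23.4 TPM, and Batf3, a dendritic cell factor, was lowest at 1.86 ± 0.29 (SD, n = 3). Among SRF, the ternary complex factors and SRF coactivators, 6 of 6 were detected with a median of 10.6 TPM. Mrtfa, an actin-regulated SRF coactivator, had 56.6 ± 12.2 TPM and Elk3, a ternary complex factor, 4.59 ± 2.14. All 5 genes of the CREB arm were detected (median 24.4 TPM), from the coactivator Ep300 at 60.0 ± 9.03 TPM to Crem at 10.5 ± 8.60.

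The MAP kinase arm, the kinases that carry the TLR4 signal to these promoters, was detected for 16 of 17 genes, with a median of 14.6 TPM. Map3k8, which links TLR4 to the ERK pathway, was highest at 56.6 ± 18.5 TPM, and Map2k6, a p38 kinase activator, lowest at 1.00 ± 0.39 (SD, n = 3). Regulators of mRNA decay, several of which act on AU-rich elements like those of Fos mRNA, were detected in 8 of 8 cases with a median of 15.1 TPM. Zfp36, which recruits deadenylases to such mRNAs, had 151 ± 87.2 TPM, and its relative Zfp36l2 had 7.83 ± 3.76. The 16 other immediate early genes had a median of 71.4 TPM and ranged from Myc at 3.11 ± 0.99 TPM to Dusp1, a phosphatase that inactivates MAP kinases, at 218 ± 112. Fos, at a mean of 282 TPM, was above each of these genes' means in these tables. In the second set of tables Fos averaged 489 TPM, below Nr4a1, an orphan nuclear receptor gene named after its values were seen, at 593 TPM. These lists are described by level only, and Atf3, Maff and Zfp36 each stand in 2 of them.

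**Figure D2:**
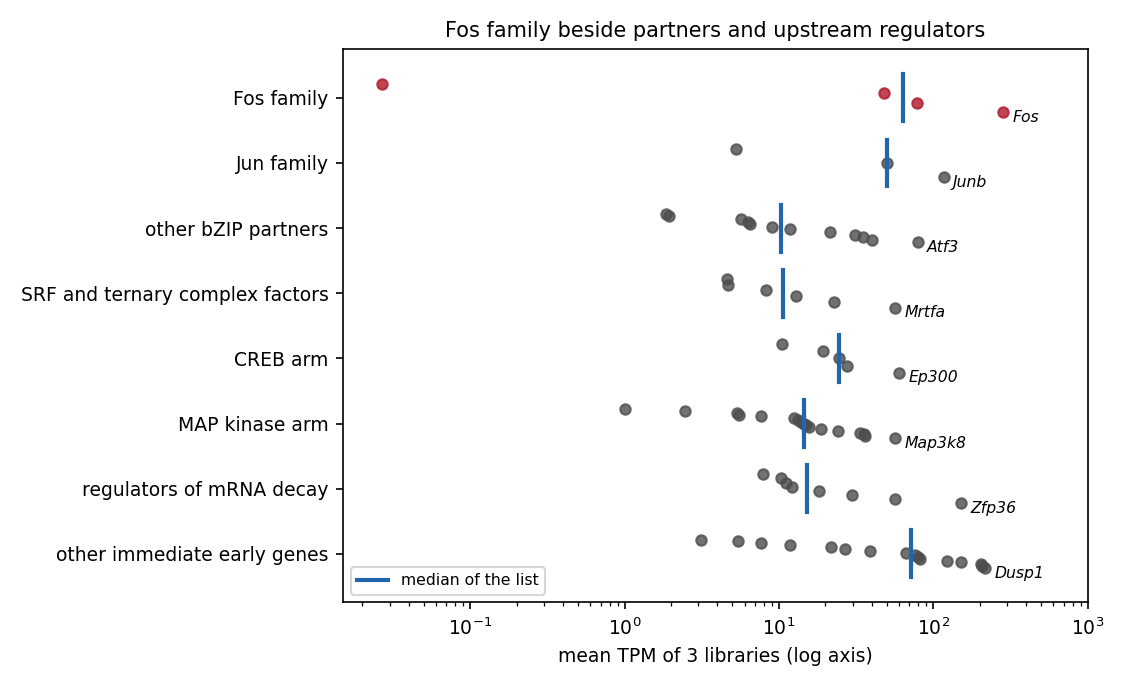
Mean TPM of 3 libraries (log axis) for each gene of the Fos family and of 7 partner and pathway lists; blue bars are list medians and the highest gene is named. Fos lies farthest right, at 282 TPM, and Fosl1 farthest left, at 0.0267 TPM.

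Transcripts of these genes on chromatin were in large part assigned to isoforms annotated as noncoding, which carry intron sequence. For Fos these isoforms held 50.4%, 61.5% and 48.5% of the TPM in replicates 1, 2 and 3 (53.5% ± 6.99; SD, n = 3). For Fosb the share was 41.6%, 49.2% and 56.2% (49.0% ± 7.29), and for Fosl2 65.4%, 71.0% and 73.5% (70.0% ± 4.11). Fosb and Fosl2 thus had their lowest share in replicate 1 and their highest in replicate 3, and Fos its highest in replicate 2.

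Shares of this size were common in these libraries. Over 7454 coding genes with such an isoform, the median share was 49.0%, 46.2% and 48.9% in replicates 1, 2 and 3. Fos lay above 58.8% of those genes, Fosb above 51.2% and Fosl2 above 82.3%.

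Fos-203 is a processed transcript of 795 bases that begins inside intron 1 and keeps the last 244 of its 754 bases. It held 39.7% ± 1.84 of Fos TPM, and Fos-202, with 24 bases of that intron, 13.8% ± 7.60. The coding isoform Fos-201 held 46.5% ± 6.99 and Fos-204 was listed at 0. In the second set of tables Fos-203 held 56.1% ± 5.81, above Fos-201 at 23.5% ± 3.44, and Fos-204 held 2.09% ± 2.41. The order of these isoforms therefore depends on the tables used. No isoform of Fos contains any base of introns 2 and 3, so reads there belong to no entry in the tables. By expected counts, which are not divided by length, the noncoding isoforms of Fos held only 24.5% ± 4.47, since Fos-201 is 2108 bases long.

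In Fosb a single-exon isoform, Fosb-204, spans 3629 bases from the start of the gene. It contains all of intron 1 (1865 bases) and intron 2 (453 bases) and 143 bases of intron 3. Its counts were 886.52, 2580.65 and 3738.91 in replicates 1, 2 and 3, or 51.4% ± 5.58 of the gene's counts. Fosl2-202 continues from the first exon into 2839 of the 10019 bases of intron 1 and held 49.1% ± 6.996 of Fosl2 TPM. Fosl2-203 begins 304 bases before exon 2 and held 20.9% ± 3.86. In the second set of tables Fosl2-203 held 40.8% ± 5.56, above Fosl2-202 at 37.8% ± 6.01, and by expected counts it held 8.15% ± 1.54, so the order of these isoforms depends on the tables used.

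The ends of intron 1 kept by Fos-203, Fosb-204 and Fosl2-203 are shown. Reads that cross these borders, or lie in the kept intron bases, set these isoforms apart from RNA with intron 1 removed. Fosl2-202 ends inside intron 1 and does not reach this border. Lower case is intron, and capitals are the first 20 bases of exon 2 (GENCODE M21, GRCm38).
Fos-203, chr12:85474895-85474954, plus strand: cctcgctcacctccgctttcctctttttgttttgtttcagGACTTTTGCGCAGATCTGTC
Fosb-204, chr7:19307421-19307480, minus strand: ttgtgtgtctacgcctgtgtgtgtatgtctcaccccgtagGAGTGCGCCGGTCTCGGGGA
Fosl2-203, chr5:32146785-32146844, plus strand: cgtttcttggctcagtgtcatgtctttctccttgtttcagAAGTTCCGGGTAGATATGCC
Each of these introns ends in the AG of a usual splice acceptor.

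**Figure D3:**
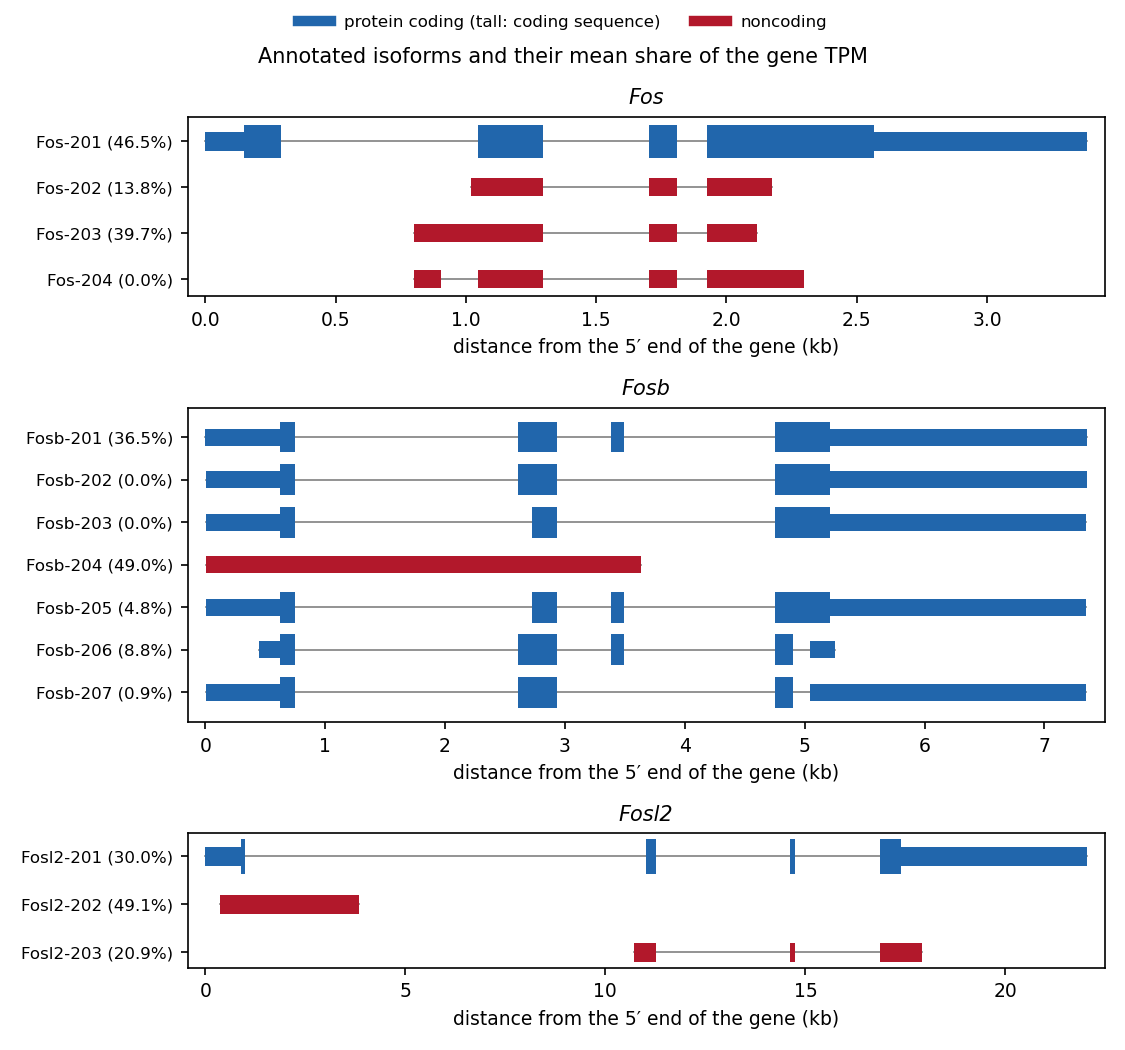
Annotated isoforms of Fos, Fosb and Fosl2, drawn to scale by distance from the 5′ end of each gene (kb), with the mean share of the gene's TPM beside each name. Blue isoforms are coding, with coding sequence drawn tall, and red isoforms are noncoding; Fosb-204 (49.0%) and Fosl2-202 (49.1%) run unspliced into intron 1.

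The main coding isoforms alone gave lower levels. Fos-201 had 55.86, 112.79 and 227.41 TPM in replicates 1, 2 and 3, with a mean of 132 ± 87.4 (SD, n = 3). Fosb-201 had 7.64, 28.11 and 52.01 TPM (29.3 ± 22.2), and Fosl2-201 had 9.82, 9.22 and 22.25 (13.8 ± 7.36). All coding isoforms of Fosb summed to 13.02, 37.17 and 62.13 TPM (37.4 ± 24.6). By this sum Fosb was above Fosl2 in 3 of 3 libraries, also in replicate 1, where Fosl2 was higher by gene TPM. In replicate 1, however, Fosb-201 alone was below Fosl2-201. The rest of the sum there came from Fosb-205, at 2.24 TPM, and the 1090-base Fosb-206, at 3.14 TPM from only 78.44 counts. Replicate 1 was again the lowest for Fos and Fosb, and replicates 1 and 2 were again close for Fosl2. In the second set of tables Fos-201 had 62.2, 93.9 and 198 TPM in replicates 1, 2 and 3. The noncoding Fos-203 had 132, 263 and 456 TPM there, against 42.70, 115.55 and 183.82 in the main tables.

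Fosb has a well known alternative form, ΔFosB, made when 140 bases inside the last exon (chr7:19305007-19305146, minus strand, GRCm38) are spliced out. It lacks the C-terminal transactivation part of FosB and is unusually stable in brain. The site is printed to show this event. In Fosb-201 capitals mark the 140 bases with 20 bases on each side, and in Fosb-206 capitals mark the bases that follow the new junction.
Fosb-201: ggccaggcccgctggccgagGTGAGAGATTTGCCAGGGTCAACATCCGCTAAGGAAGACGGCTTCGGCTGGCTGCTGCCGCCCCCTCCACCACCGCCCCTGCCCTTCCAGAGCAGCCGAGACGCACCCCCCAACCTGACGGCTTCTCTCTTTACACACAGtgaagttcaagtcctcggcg
Fosb-206: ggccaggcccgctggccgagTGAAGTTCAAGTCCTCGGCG
The coding sequence of Fosb-206 ends at the last base before the junction, and the next bases, TGA, are a stop codon. Isoforms without the 140 bases, Fosb-206 and Fosb-207, held 24.1%, 19.4% and 11.9% of the TPM of coding Fosb isoforms in replicates 1, 2 and 3 (18.5% ± 6.17; SD, n = 3). By expected counts the share was 7.42%, 6.97% and 5.80% (6.73% ± 0.84). Fosb-207 also lacks exon 3, the DNA-contacting part shown above. It had 0, 52.77 and 106.23 counts in replicates 1, 2 and 3, and Fosb-206 had 78.44, 115.49 and 59.02. Fosb-206 is annotated at 1090 bases and Fosb-201 at 3782, so the same number of reads gives it more TPM. In the second set of tables the share by TPM was 35.5%, 28.3% and 16.3% (26.7% ± 9.68). Isoforms that keep the 140 bases held most of the coding signal under all 3 measures. RNA not yet spliced at this site also keeps the 140 bases, so on chromatin these shares cannot separate it from finished FosB mRNA.

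**Figure D4:**
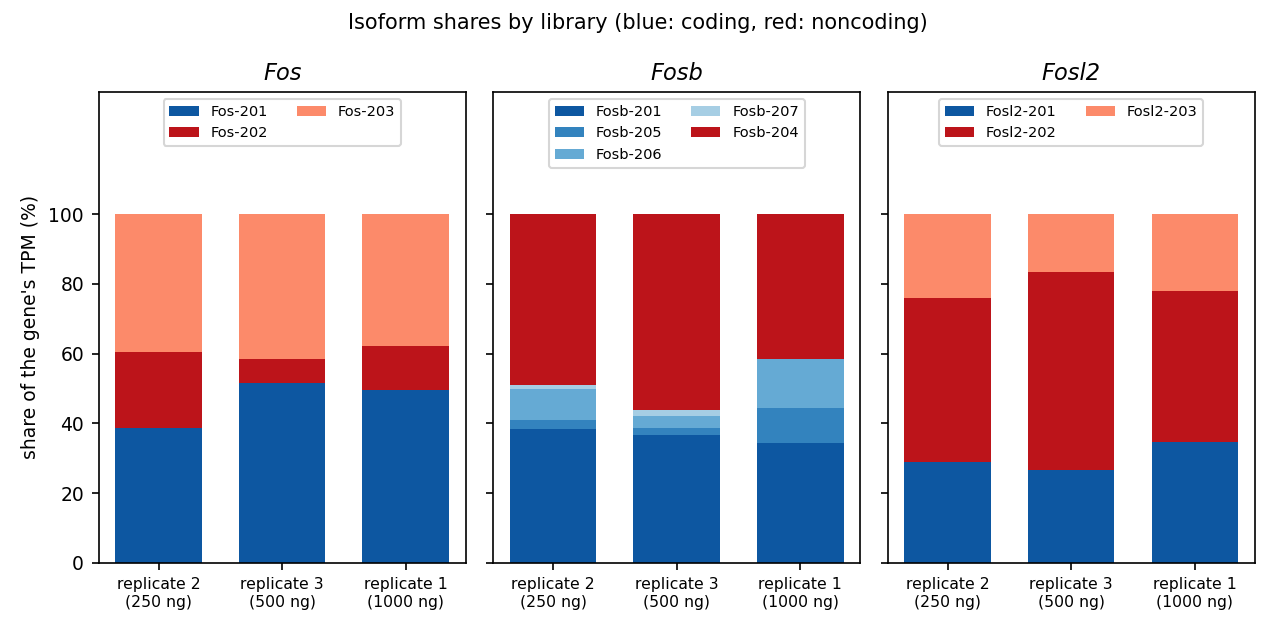
Share of each gene's TPM (%) held by each isoform in the 3 libraries, ordered by starting RNA; coding isoforms are blue and noncoding isoforms red, and isoforms at 0 are left out. Noncoding isoforms held 48.5% to 61.5% in Fos, 41.6% to 56.2% in Fosb and 65.4% to 73.5% in Fosl2.

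The libraries differed in the recorded amount of starting RNA, and Fos and Fosb were among the genes that varied most between them. At 250, 500 and 1000 ng (replicates 2, 3 and 1) Fos had 8.84, 9.04 and 7.87 log2 CPM (log2 of counts scaled to the TMM-normalized library total), Fosb 8.49, 8.87 and 6.88, and Fosl2 7.49, 8.27 and 7.57. Fos and Fosb were lowest in the 1000 ng library, Fosl2 was lowest in the 250 ng library, and all 3 were highest at 500 ng. In bulk RNA, fewer cells with an active gene and less RNA per cell cannot be told apart. Fibroblast markers, though under 1 TPM, also stood lowest in replicate 1, with 4 genes summing to 0.02 TPM there and to 0.68 TPM in each other library, and entries with no annotated gene held the most counts there (1.08%, against 0.299% and 0.332% in replicates 2 and 3). The part of either in these differences was not tested.

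Across 7583 coding genes that averaged 100 counts or more, the median of edgeR's coefficient of biological variation was 0.187. Despite its name, this coefficient takes in all spread between libraries beyond counting error, which may be partly technical. It was 0.399 for Fosb, above 99.4% of those genes, 0.284 for Fos, above 96.9%, and 0.240 for Fosl2, above 91.2%. Replicate 2 exceeded replicate 1 by 0.96 log2 for Fos, more than for 99.1% of the genes, and by 1.61 for Fosb, more than for 99.9%. For Fosl2 that difference was -0.07, in the middle of the genes, at 34.0%. Replicate 3 exceeded replicate 1 by 1.17 for Fos, 1.98 for Fosb and 0.70 for Fosl2, more than for 99.7%, 99.97% and 98.2% of the genes.

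Of the 3 members with enough counts, 2 were lowest in replicate 1, against 28.9% of the 15065 genes tested, and 3 were highest in replicate 3, against 35.4%. Fos and Fosb did both, as did 13.6% of genes. Of the other immediate early genes, 12 of 16 were lowest in replicate 2, against 39% of genes, 2 of 16 were lowest in replicate 1, and 6 of 16 were highest in replicate 3. No Jun gene was lowest in replicate 1, and 2 of 3 were lowest in replicate 2. Whether these counts differ between the lists was not tested.

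**Figure D5:**
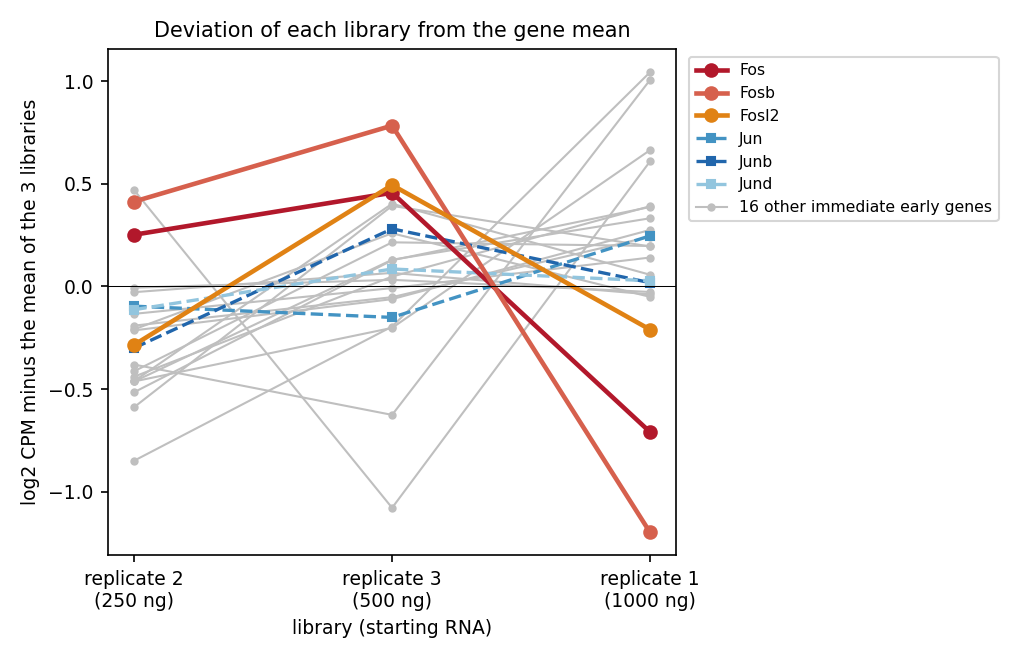
Deviation of log2 CPM from the mean of the 3 libraries, with libraries ordered by starting RNA, for Fos, Fosb and Fosl2, the Jun family and 16 other immediate early genes. Fos and Fosb fall farthest below their means in replicate 1, at -0.71 and -1.20.

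A slope per doubling of starting RNA was fitted to all genes with edgeR's quasi-likelihood test, with 1 residual degree of freedom and Benjamini-Hochberg adjustment. The test shares variance estimates across genes, so its p-values rest largely on other genes. Each SE given with an edgeR slope is the absolute slope divided by the square root of its F statistic. The test called 88 of 15065 genes (0.584%) at adjusted p below 0.05, 83 of them with a positive slope and 5 with a negative one. None of the 3 tested members was called, and 1 of 3, Fosb, was below 0.05 before adjustment, as were 6.75% of genes; DESeq2 called none of the members and 0.346% of genes. The slope was -0.48 for Fos (SE 0.24, edgeR adjusted p = 0.769), -0.80 for Fosb (SE 0.30, edgeR adjusted p = 0.480) and 0.04 for Fosl2 (SE 0.23, edgeR adjusted p = 0.999). Leaving out replicate 1 turned the slopes of Fos and Fosb positive, to 0.18 and 0.35, so their sign rests on that library, and leaving out replicate 2 turned that of Fosl2 negative, to -0.70. With no filter on low counts Fosb was called (edgeR adjusted p = 0.0284), among 284 of 24261 genes tested in that setting. The amount of starting RNA and the library cannot be told apart, since each amount has 1 library.

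Of the 64 genes in the 7 partner and pathway lists, 2 rose with starting RNA and none fell, against 0.584% of all genes called (83 higher and 5 lower). The median slope was 0.08 for these genes and 0.00 over all genes tested. Both are bZIP partners, named after their values were seen. Batf, a factor of immune cells, had a slope of 1.23 (SE 0.27, edgeR adjusted p = 0.0471), and the small Maf protein gene Maff, also counted with the other immediate early genes, 0.96 (SE 0.17, edgeR adjusted p = 0.0149). No Jun gene was called, with slopes of 0.17 for Jun, 0.16 for Junb and 0.07 for Jund.

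The genes most like each member over the 3 libraries were found among 7582 other coding genes by the Euclidean distance between centred log2 CPM values, which with 3 points is a weak measure. Nearest to Fos were Spty2d1 at a distance of 0.086, Hilpda, a lipid droplet protein gene, at 0.165, and Sik1, a salt-inducible kinase gene, at 0.168. Nearest to Fosb were Mpp7 at 0.252, Hmga2, a chromatin architectural factor gene, at 0.318, and Cd300ld, a myeloid receptor gene, at 0.440. Fos came 10th in order from Fosb, at 0.610, whereas Fosb came 375th from Fos, since many more genes lie near the profile of Fos. Nearest to Fosl2 were Zfp319 at 0.011, Vps26b, a retromer gene, at 0.026 and Syngr2 at 0.041, and Fos and Fosb stood 4256th and 7404th from it.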

How the data were processed

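Chromatin-fraction total RNA of 3 libraries of 1 group was quantified against annotation M21 of mm10, per the archive's listing deposited with each library. For the aligner, quantifier, versions and strandedness: not given in the sources used here. The authors deposited expected counts, TPM, isoform percent and a signal column pair with credibility bounds in TPM, in gene and transcript tables. A second set of transcript tables with estimated counts and TPM, deposited by the authors, came straight from the read files. Reads from overlapping antisense genes cannot be told apart without strand, and unspliced RNA is counted only where an annotated isoform covers it.

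Totals per library were 12439931 to 16317439 expected counts, and 21107490 to 27754284 estimated counts in the second tables. Entries with no annotated gene (26345) held 1.08%, 0.299% and 0.332% of counts in replicates 1, 2 and 3 and were left out. Symbols, isoform types and coordinates came from GENCODE M21 on GRCm38, transcript sequences from GENCODE M21, and promoters from RefSeq (GRCm38.p6).

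Expected counts were rounded for edgeR 4.0.16 (R 4.3.3; TMM, filterByExpr) and DESeq2 1.42.0. The slope test was tested on simulated data. Log2 levels used a pseudocount of 0.1 TPM. Intervals and floors cover counting error only. Differences between members within libraries were tested with an exact sign-flip permutation test. Alternatives were the second tables, TPM over coding genes, posterior mean TPM, pseudocounts of 1 and 0.01, other detection limits, size factors or the test of DESeq2, unfiltered genes, count shares of isoforms and each replicate left out. Named genes were the members, the Jun family, the highest and lowest gene of each list, genes called within a list, and the 3 genes nearest each member. A further marker list is not reported here. Members and lists were chosen with earlier results of these data known. Scripts used pandas 2.3.3, scipy 1.17.1, numpy 2.4.6 and matplotlib 3.10.9 (Python 3.11.15).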

Additional observations from a re-analysis of the deposited data

How the results depend on the processing

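Of 104 recomputed values over 17 results, 3 changed sign, 1 passed the threshold, 18 moved beyond their limit and the other 82 did not. The limit was 1 SD between libraries for levels, differences and shares, and 1.5 times for counts of genes. For slopes with a replicate left out it was 1 SE. Slopes in the other settings were judged only by sign and by the adjusted p threshold of 0.05, so they could not count as moved. Rescaled over coding genes, mean TPM was 1374 for Fos, 373 for Fosb, 232 for Fosl2 and 0.123 for Fosl1, by construction of that scale. In the second tables Fos averaged 489 TPM and Fosl1 0.255, Fos exceeded Fosb by 2.87 on the log2 scale, the Fos share of the family was 78.8%, and the noncoding isoform share was 76.5% for Fos and 78.6% for Fosl2; the cause was not tested. In those tables Nr4a1 averaged 593 TPM, above Fos. Posterior mean TPM gave 0.607 for Fosl1. Shares of expected counts gave 24.5% for Fos and 50.1% for Fosl2, since they are not divided by length.

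The slope test called 284 of 24261 genes with no filter and 158 of 23931 in the second tables. With no filter the slope of Fosb, -0.81, was called (edgeR adjusted p = 0.0284, against 0.353 to 1.00 in the other alternatives). Leaving out each replicate in turn, slopes ran from -1.16 to 0.18 for Fos, -1.98 to 0.35 for Fosb and -0.70 to 0.75 for Fosl2, with a changed sign for Fos and Fosb without replicate 1 and for Fosl2 without replicate 2. These slopes have no test, as no residual degrees of freedom remain. Without 1 replicate, mean TPM was 203 to 367 for Fos, 47.7 to 107 for Fosb and 30.1 to 57.8 for Fosl2, the lowest values being those without replicate 3. Fosb minus Fosl2 ran from 0.20 to 0.98. No paired analysis was possible because there is only 1 group. Depth limits only Fosl1.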
